A study of Mus musculus with 8 samples.

Results

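The genes described here give spinal neurons their cholinergic or glutamatergic identity. They are 4 genes of acetylcholine handling, *Chat*, *Slc18a3*, *Slc5a7* and *Ache*, and 3 vesicular glutamate transporter genes, *Slc17a6*, *Slc17a7* and *Slc17a8*. Each was taken as the row of the value table whose annotation holds that symbol alone, and where several rows did, as the row with the highest mean over the 8 arrays. All 7 were found among 30176 gene symbols, which are named by part of 65956 transcript clusters, the probe sets that each stand for 1 transcribed region. The samples were spinal cords of mouse embryos at E14.5, taken whole according to the study and hybridised to the Affymetrix Mouse Transcriptome Array. There were 4 arrays of *Nfix*-/- embryos, which lack the transcription factor Nuclear Factor One X (NFIX), and 4 of *Nfix*+/+ littermates, all of the C57Bl/6J strain and from matings of heterozygous parents. The mutation was inherited, so all cells of the embryo carry it, the labels number the arrays of each genotype as biological replicates 1 to 4, and neither the sex of the embryos nor their litters are given.

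Acetylcholine is the transmitter of spinal motor neurons, of preganglionic autonomic neurons and of a small set of interneurons. *Chat* encodes choline acetyltransferase, which makes it, *Slc18a3* the vesicular transporter that loads it, *Slc5a7* the transporter that brings choline back into the terminal, and *Ache* the esterase that breaks it down. Glutamate is loaded into vesicles by the products of the *Slc17a* genes. *Slc17a6* (VGLUT2) is the main form in excitatory spinal interneurons and is also made by sensory neurons, *Slc17a7* (VGLUT1) marks mainly cortical and large sensory neurons, and *Slc17a8* (VGLUT3) is found in few neurons, among them some of the dorsal horn.

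*Chat* and *Slc18a3* share a locus on chromosome 14, and their upstream sequences are shown because genes of a shared locus can be set against each other here. In RefSeq on GRCm38.p6, *Slc18a3* (14, 32462437 to 32464850) lies within the span of *Chat* (14, 32408203 to 32465909) on the same strand, and the transcript starts are 1059 bases apart. The sequence upstream of *Slc17a6* is shown because it held the most matches to the NFI core among the 7 genes. Each is the 250 bases before the RefSeq start, on the minus strand for *Chat* and *Slc18a3* and on the plus strand for *Slc17a6*, with matches to the core TTGGC, or to its reverse complement GCCAA, in capitals. NFI factors bind a pair of these cores facing each other, and also a single one more weakly.
Chat, chr14:32465910-32466159: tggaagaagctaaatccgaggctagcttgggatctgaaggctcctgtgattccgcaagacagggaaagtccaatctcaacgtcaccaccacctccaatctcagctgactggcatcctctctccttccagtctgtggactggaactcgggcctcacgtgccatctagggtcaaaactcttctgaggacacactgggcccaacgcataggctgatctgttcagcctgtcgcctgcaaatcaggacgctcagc
Slc18a3, chr14:32464851-32465100: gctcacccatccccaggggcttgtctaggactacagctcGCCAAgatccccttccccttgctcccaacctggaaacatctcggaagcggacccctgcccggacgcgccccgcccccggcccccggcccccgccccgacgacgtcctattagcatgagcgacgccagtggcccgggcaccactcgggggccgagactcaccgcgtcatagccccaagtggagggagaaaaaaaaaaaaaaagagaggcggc
Slc17a6, chr7:51621580-51621829: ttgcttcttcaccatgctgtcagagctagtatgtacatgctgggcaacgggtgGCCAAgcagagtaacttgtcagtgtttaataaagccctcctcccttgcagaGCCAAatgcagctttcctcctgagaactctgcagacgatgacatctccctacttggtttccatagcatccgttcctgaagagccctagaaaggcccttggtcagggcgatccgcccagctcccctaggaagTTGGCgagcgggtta

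In these windows *Chat* held no core, *Slc18a3* held 1 at 211 bases before the start, and *Slc17a6* held 3, at 197, 146 and 15 bases before it. The 7 genes had 9 starts in the RefSeq table, and 4 of the 9 windows held a core, the others being *Slc5a7* with 2 and *Slc17a7* with 2 that lie next to each other. Among 32851 promoter windows of this length, 41.5% held at least 1 core on either strand, 11.5% held at least 2 and 2.68% held at least 3. The full NFI palindrome, TTGGC and GCCAA with 5 bases between, was in none of the 9 windows and in 0.0365% of all windows. The homeodomain core TAATTA, which reads the same on both strands, was in 2 of the 9, the second starts of *Slc17a6* and *Slc17a8*, and in 4.84% of all. These are matches of letters in short windows, and binding was not measured.

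*Nfix* itself had log2 values of 8.81 to 8.90 on the *Nfix*-/- arrays and of 9.18 to 9.36 on the *Nfix*+/+ arrays, a difference of -0.39 (adjusted p = 0.00240 from limma). Its signal stayed above background in *Nfix*-/-, and which of its probes lie in the deleted part is not known here. The direction of all differences follows the genotypes in the labels, with *Nfix* lower in *Nfix*-/-, and at the fold cut-off of the study the balance of higher and lower clusters is opposite to the one the study gives. All values are log2 signals as deposited, and differences are *Nfix*-/- minus *Nfix*+/+ with standard errors and adjusted p from limma over all clusters. The medians over clusters were 5.08 to 5.21, and the 95th percentile of the negative-control probe sets, used as a mark of background, was 7.27 to 7.59. *Nfix*+/+ replicate 2 stood apart from the others, with a score of 72.7 on the first principal component against -38.3 to 20.5. Its negative-control median was also the highest, 4.88 against 4.33 to 4.60, and several results are also given without it. Above the negative-control mark on at least 4 arrays were 12 of 12 marker genes for neurons and 9 of 12 for neural progenitors. So were 12 of 13 cervical and thoracic *Hox* genes and 1 of 12 lumbosacral ones. For cells outside the cord it was 1 of 15 for skeletal muscle and 2 of 7 for red blood cells. It was 5 of 10 for sensory ganglia and Schwann cells and 8 of 13 for meninges and fibroblasts. The tissue is a mixture of cells, so fewer cells of a type and less RNA per cell cannot be told apart.

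None of the 7 genes passed an adjusted p of 0.05 between *Nfix*-/- and *Nfix*+/+ spinal cord, while 22.0% of all 65956 clusters did, 11.5% higher and 10.5% lower. Those that also passed a fold of 1.5 were 1351 clusters or 2.05%, of which 522 were higher and 829 lower in *Nfix*-/-. The median difference of the 7 genes was -0.02, against 0.02 over all clusters. *Ache*, in its row with the highest mean, and *Slc17a6* were the brightest of the set against background, above the negative-control mark on all 8 arrays. The other row of *Ache* was above it on 6. *Slc18a3* was above it on 3 arrays, *Slc5a7* on 1, and *Chat*, *Slc17a7* and *Slc17a8* on 0. At that mark the signal of these last 3 genes could not be separated from background, so a low level remains possible. In 3 of the 7 genes, *Chat*, *Ache* and *Slc17a6*, the values of the 2 genotypes did not overlap, 1 lower and 2 higher in *Nfix*-/-, beside 28.1% of all clusters, 16.1% being higher and the rest lower. The same 3 genes had an unadjusted p under 0.05, beside 36.7% of all clusters. For all 7, the 95% interval of the difference lay inside a fold change of 1.5 in either direction.

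**Figure D1:**
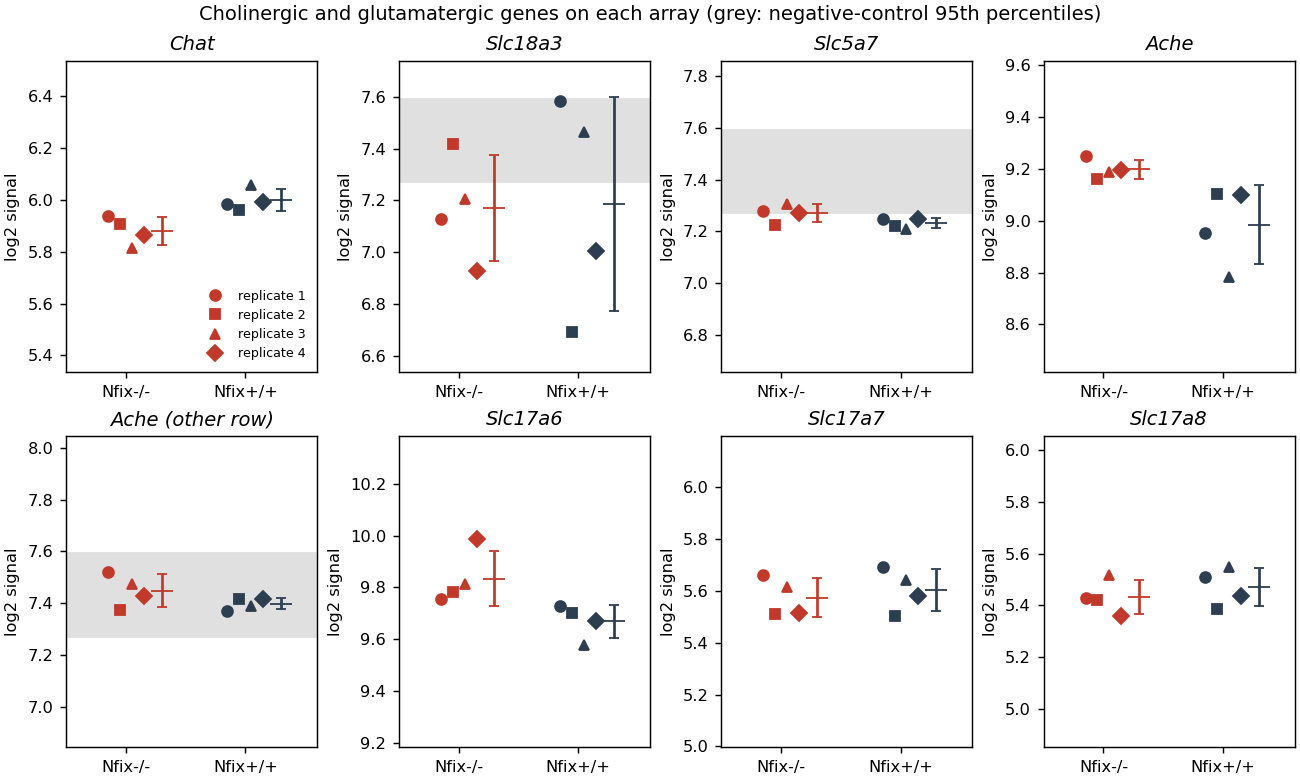
The log2 signal of each gene is plotted for the 4 *Nfix*-/- arrays on the left and the 4 *Nfix*+/+ arrays on the right of each panel. Symbols mark replicates, bars are mean and SD, every panel spans the same range of log2 units, and grey marks the range of the negative-control 95th percentiles, 7.27 to 7.59. The genotypes do not overlap for *Chat*, *Ache* (the row with the highest mean) and *Slc17a6*, and *Slc18a3* has the widest spread.

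The synthesis enzyme gene *Chat* was the only one of the set whose values lay lower in *Nfix*-/- without overlap. Its log2 values were 5.94, 5.91, 5.81 and 5.86 on the *Nfix*-/- arrays and 5.98, 5.96, 6.06 and 5.99 on the *Nfix*+/+ arrays. The highest *Nfix*-/- value and the lowest *Nfix*+/+ value were close, and all lay below the negative-control mark. The means were 5.88 ± 0.0538 in *Nfix*-/- and 6.00 ± 0.0425 in *Nfix*+/+ (SD, n = 4 each). The difference was -0.12 (standard error 0.0471, 95% interval -0.23 to -0.01, adjusted p = 0.107 from limma), a fold of 0.921. Permuting the arrays of this gene alone (exact permutation test, two-sided) gave p = 0.0286, which is as low as 4 arrays against 4 can reach.

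*Slc18a3*, the vesicular transporter gene nested in the *Chat* locus, varied more between arrays of 1 genotype than any other of the 7. It had 7.13, 7.42, 7.21 and 6.93 on the *Nfix*-/- arrays and 7.58, 6.69, 7.47 and 7.005 on the *Nfix*+/+ arrays. The *Nfix*+/+ arrays held both the highest and the lowest value, so the genotypes overlapped fully. The means were 7.17 ± 0.203 in *Nfix*-/- and 7.19 ± 0.413 in *Nfix*+/+ (SD, n = 4 each), a difference of -0.02 (standard error 0.198, 95% interval -0.47 to 0.44, adjusted p = 0.964 from limma). Only 6.76% of all clusters had a larger standard error. Without *Nfix*+/+ replicate 2 the difference was -0.18 (adjusted p = 0.429).

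The 3 arrays with the lowest *Slc18a3*, *Nfix*-/- replicate 4 and *Nfix*+/+ replicates 2 and 4, were also the 3 with the highest negative-control medians, at 4.60, 4.88 and 4.49 against 4.33 to 4.40 on the other arrays. Over the 8 arrays the relation had Pearson's r = -0.82 (two-sided exact permutation test, p = 0.00479, adjusted p = 0.0335 over the 7 genes). Spearman's rho was -0.71 (exact permutation test, p = 0.0576, adjusted p = 0.134). Without the 2 arrays farthest from the median background, *Nfix*-/- replicate 4 and *Nfix*+/+ replicate 2, r was -0.47, so the relation rests on those arrays. This relation was chosen after the values of *Slc18a3* were seen. For deviations from the genotype means r was -0.86, and r with the negative controls over all arrays was -0.71 for *Slc17a7*, -0.68 for *Slc17a8* and -0.04 for *Chat* (adjusted p = 0.103, 0.124 and 0.918, exact permutation tests).

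The mean over 22 genes of motor neurons was likewise lowest within each genotype on the array with the lowest *Slc18a3*. It was 7.43 on *Nfix*-/- replicate 4, against 7.52 to 7.53 on the other *Nfix*-/- arrays, and 7.34 on *Nfix*+/+ replicate 2, against 7.45 to 7.47 on the other *Nfix*+/+ arrays. The mean over 24 genes of excitatory interneurons was also lowest on those arrays, at 7.49 and 7.42. This was not particular to neuron classes. Over 16 lists, those of muscle, ganglion and progenitors included, *Nfix*-/- replicate 4 had the lowest mean of its genotype in 11. *Nfix*+/+ replicate 2 had it in 12, and both arrays had it in 9. Not all of the 22 genes are confined to motor neurons. On *Nfix*+/+ replicate 2 *Isl2* was 7.38 against 7.76 to 8.01, and *Prph* 9.54 against 9.91 to 10.05. *Chodl* and *Slit2* were instead highest there. These genes are named after their values were seen. The ganglion mean was 6.78 on that array, against 7.10 to 7.26 on the other *Nfix*+/+ arrays. On *Nfix*-/- replicate 4 the lumbosacral gene *Hoxc10* was also low, at 4.73 against 8.37 to 8.97, but on *Nfix*+/+ replicate 2 it was 7.93. What part background, the share of motor neurons or the length of cord taken has in the spread of *Slc18a3* was not tested.

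**Figure D2:**
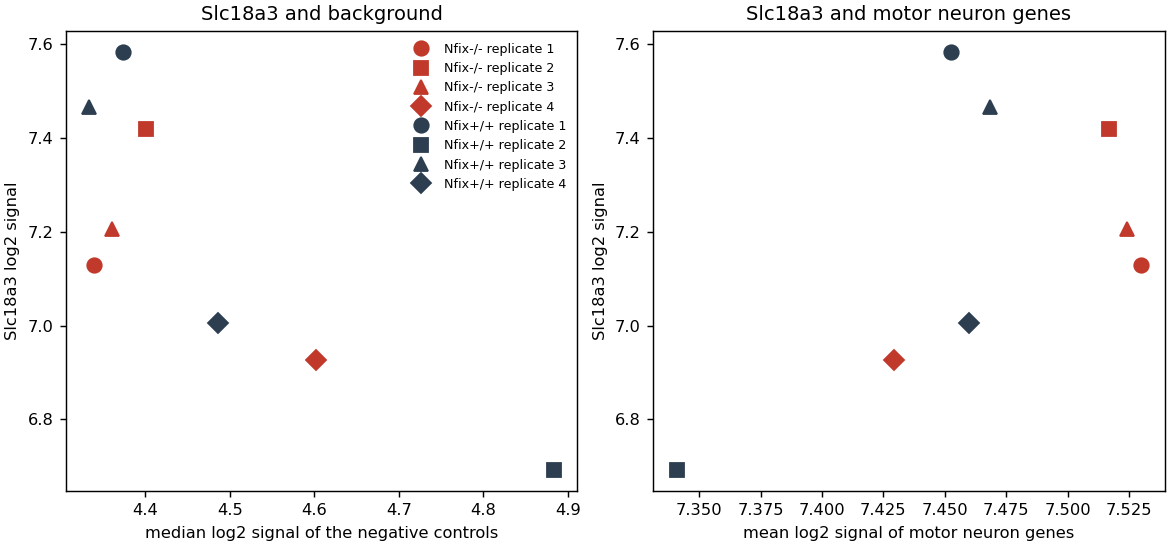
On the left, the log2 signal of *Slc18a3* (vertical axes) is set against the median log2 signal of the negative controls. On the right, it is set against the mean log2 signal of 22 motor neuron genes, not all of them confined to that class. Each array is 1 point. The 3 arrays with negative-control medians of 4.49 to 4.88 hold the 3 lowest *Slc18a3* values, 6.69 to 7.005, and *Nfix*+/+ replicate 2 is lowest on both vertical and motor neuron axes.

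*Slc5a7*, the gene of the high-affinity choline transporter, was the least variable of the cholinergic genes. Its values were 7.28, 7.22, 7.31 and 7.27 on the *Nfix*-/- arrays and 7.25, 7.22, 7.21 and 7.25 on the *Nfix*+/+ arrays. The genotypes overlapped, with *Nfix*-/- replicate 2 as low as the *Nfix*+/+ arrays. The difference of 0.04 (SE 0.0407, 95% interval -0.05 to 0.13, adjusted p = 0.531 from limma) turned to -0.03 after cyclic loess and to -0.01 after quantile normalization.

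*Ache*, the esterase gene, had the largest difference of the 7, and it was held by 1 of its 2 rows. The row with the highest mean had 9.25, 9.16, 9.19 and 9.20 on the *Nfix*-/- arrays and 8.95, 9.10, 8.78 and 9.10 on the *Nfix*+/+ arrays. All *Nfix*-/- arrays lay above all *Nfix*+/+ arrays and close together, while *Nfix*+/+ replicates 1 and 3 were the lowest. The means were 9.20 ± 0.0369 in *Nfix*-/- and 8.99 ± 0.152 in *Nfix*+/+ (SD, n = 4 each). The difference was 0.21 (standard error 0.0758, 95% interval 0.04 to 0.39, adjusted p = 0.0766 from limma), a fold of 1.16. Without *Nfix*+/+ replicate 2 it was 0.25 and passed (adjusted p = 0.0477), and after cyclic loess it was 0.11 (adjusted p = 0.351). The array's design marks this row as unmapped, so its probes have no genome position here.

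The other row of *Ache*, which the design places on chromosome 5 where the gene lies (5, 137288247 to 137294466), gave a smaller difference. It had 7.52, 7.37, 7.48 and 7.43 on the *Nfix*-/- arrays and 7.37, 7.42, 7.39 and 7.42 on the *Nfix*+/+ arrays. The genotypes overlapped, and the difference was 0.05 (standard error 0.0467, 95% interval -0.06 to 0.16, adjusted p = 0.481 from limma).

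Of the vesicular glutamate transporters, *Slc17a6* lay higher in *Nfix*-/- without overlap but did not pass the test. It had 9.75, 9.78, 9.81 and 9.99 on the *Nfix*-/- arrays and 9.73, 9.70, 9.58 and 9.67 on the *Nfix*+/+ arrays. *Nfix*-/- replicate 4 was the highest, and the other *Nfix*-/- arrays lay just above the *Nfix*+/+ arrays. The means were 9.83 ± 0.106 in *Nfix*-/- and 9.67 ± 0.0644 in *Nfix*+/+ (SD, n = 4 each), a difference of 0.16 (standard error 0.0640, 95% interval 0.02 to 0.31, adjusted p = 0.0998 from limma) and a fold of 1.12. Clusters above the negative-control mark on at least 4 arrays had a median difference of 0.09, and 14.1% of these 11778 were called higher against 0.416% lower. After cyclic loess this median was -0.01 and the difference of *Slc17a6* was 0.05 (adjusted p = 0.554), and after quantile normalization the difference was 0.04 (adjusted p = 0.679). Of 12 genes of neurons, *Nefl*, *Nefm* and *Gap43* were higher in *Nfix*-/-, by 0.23, 0.23 and 0.18 (adjusted p = 0.00638, 0.0155 and 0.0164 from limma). The other 9 did not pass, the list median was 0.11, and 0 of the 12 passed after cyclic loess.

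Sensory neurons also make *Slc17a6*, and cords can keep ganglion tissue. The mean over 10 genes of sensory ganglia and Schwann cells, 5 of them above the negative-control mark on at least 4 arrays, was 7.24 to 7.38 on the *Nfix*-/- arrays and 6.78 to 7.26 on the *Nfix*+/+ arrays. The list median was 0.26, and 0.19 after cyclic loess. *Scn11a* was higher by 0.44 (adjusted p = 0.0434 from limma), on 0 arrays above the mark, and 9 genes did not pass. Without *Nfix*+/+ replicate 2, 0 genes of the list passed. The list mean was lowest on *Nfix*+/+ replicate 2, where *Slc17a6* was the second highest of its genotype. The difference of *Slc17a6* without that array was 0.18 (adjusted p = 0.113 from limma). The part of ganglion tissue in it was not tested.

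The other transporters were dim and did not separate the genotypes. *Slc17a7* had 5.66, 5.51, 5.61 and 5.51 on the *Nfix*-/- arrays and 5.69, 5.50, 5.64 and 5.58 on the *Nfix*+/+ arrays. The difference was -0.03 (standard error 0.0596, 95% interval -0.17 to 0.11, adjusted p = 0.759 from limma). *Slc17a8* had 5.43, 5.42, 5.52 and 5.36 on the *Nfix*-/- arrays and 5.51, 5.39, 5.55 and 5.44 on the *Nfix*+/+ arrays, a difference of -0.04 (standard error 0.0553, 95% interval -0.17 to 0.09, adjusted p = 0.657 from limma). The ranges of the genotypes overlapped in each gene. The intervals bound a difference in signal only, since dim probe sets may understate a change in RNA.

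**Figure D3:**
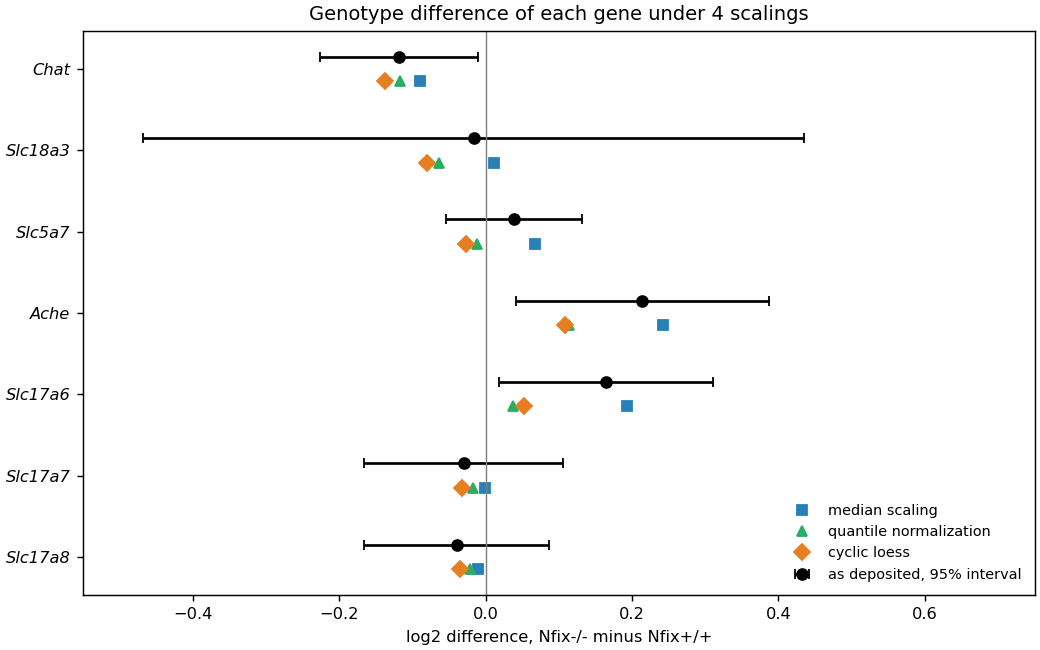
The log2 difference, *Nfix*-/- minus *Nfix*+/+, is plotted for each gene as deposited (black, with the 95% interval) and after median scaling, quantile normalization and cyclic loess. *Ache* and *Slc17a6* move toward 0, to 0.11 and 0.05, after cyclic loess, and *Chat* stays between -0.14 and -0.09.

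The 7 genes gave 21 pairs, of which 5 had an unadjusted p under 0.05 for Pearson's r and 0 passed after adjustment over the pairs. *Chat* and *Slc18a3*, although they share a locus, had r = 0.24 (exact permutation test, p = 0.560, adjusted p = 0.619) and rho = 0.26 (exact permutation test, p = 0.536, adjusted p = 0.704), and r was 0.12 without the 2 arrays farthest from the median of *Chat*. *Chat* and *Slc17a6* ran in opposite order, with r = -0.82 (exact permutation test, p = 0.0132, adjusted p = 0.164) and rho = -0.95 (exact permutation test, p = 0.00114, adjusted p = 0.0240). For this pair r was -0.92 without those 2 arrays and -0.57 for deviations from the genotype means, and neither gene overlapped between genotypes, so the pooled value includes their genotype differences. *Slc18a3* and *Slc17a8* had r = 0.74 (exact permutation test, p = 0.0385, adjusted p = 0.164) and rho = 0.71 (adjusted p = 0.194), with r = 0.66 without the 2 farthest arrays.

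Among 7092 other named genes above the negative-control mark, those whose 8 values followed *Slc17a6* most closely were *Slc38a1*, a neutral amino acid transporter gene, at r = 0.98, and *Srp54c*, at r = 0.98. Those nearest to the unmapped row of *Ache* were *Dis3l2* and *Rpsa-ps4*, both at r = 0.95. The value of r was over 0.9 for 209 genes with *Slc17a6* and for 45 with *Ache*. They are given as a description.

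Genes related to the 7 by pathway or neuron class held few calls. Of 111 genes measured in 8 lists, 5 passed an adjusted p of 0.05, 2 of them higher and 3 lower in *Nfix*-/- (3 and 0 with median scaling, 2 and 5 after cyclic loess, 0 and 1 after quantile normalization), which is 4.50%, beside 20.9% of the 30176 symbols, of which 13.1% were higher and 7.84% lower. The median over the 111 was 0.05. Only 1 of the 5, *Chrna7*, was above the negative-control mark on at least 4 arrays.

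None of 10 further genes of choline and acetylcholine handling passed. Those with the lowest p were *Colq*, the collagen tail that anchors the esterase at the neuromuscular junction, at 0.16 (adjusted p = 0.117 from limma), and the choline kinase gene *Chkb*, at 0.10 (adjusted p = 0.123). Of 21 acetylcholine receptor genes *Chrna7*, which encodes the α7 nicotinic subunit, rose in *Nfix*-/- and 20 did not pass. It averaged 7.73 ± 0.0467 in *Nfix*-/- and 7.53 ± 0.0359 in *Nfix*+/+ (SD, n = 4 each), higher by 0.20 (standard error 0.0447, limma adjusted p = 0.0161). After cyclic loess it was 0.12 (adjusted p = 0.0809) and did not pass, while *Chrna3*, which encodes the α3 subunit, passed and was lower, at -0.17 (adjusted p = 0.0235), against -0.09 (adjusted p = 0.175) as deposited. *Chrna3* is named after its values were seen.

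Of 13 genes of glutamate synthesis and uptake none passed, with the neutral amino acid transporter gene *Slc1a5* at 0.15 (adjusted p = 0.0679 from limma) and the mitochondrial aspartate aminotransferase gene *Got2* at 0.10 (adjusted p = 0.129). Among 6 other genes of the SLC17 family *Slc17a3*, an organic anion transporter gene best known from kidney, fell by 0.18 (standard error 0.0490, adjusted p = 0.0329 from limma), and 5 did not pass. It was above the negative-control mark on 0 arrays, and after cyclic loess it was -0.15 (adjusted p = 0.0532).

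Among genes of inhibitory identity none of 6 passed, and their median was 0.02. The value nearest to that of *Slc17a6* was that of *Slc32a1*, the vesicular transporter of GABA and glycine, at 0.14 (standard error 0.050, adjusted p = 0.0718 from limma), with 8.43 ± 0.0331 in *Nfix*-/- and 8.28 ± 0.0719 in *Nfix*+/+ (SD, n = 4 each). The GABA transporter gene *Slc6a11* was at -0.11 (adjusted p = 0.281), and passed after cyclic loess, at -0.23 (adjusted p = 0.0322), and after quantile normalization, at -0.21 (adjusted p = 0.0315). Of 9 monoamine genes the dopamine transporter gene *Slc6a3* fell by 0.19 (adjusted p = 0.0294 from limma) and 8 did not pass. *Slc6a3* was above the negative-control mark on 0 arrays. It passed after cyclic loess (adjusted p = 0.0117) and did not after quantile normalization (adjusted p = 0.0944).

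Of 22 genes of motor neurons, the main cholinergic cells of the cord, only the homeodomain factor gene *Mnx1* passed, and it fell by 0.30 (standard error 0.0812, adjusted p = 0.0310 from limma). Like *Chat* it was above the negative-control mark on 0 arrays. *Mnx1* passed after cyclic loess (adjusted p = 0.0198 from limma) and did not after quantile normalization (adjusted p = 0.0727). *Isl1* and *Lhx3*, whose products drive cholinergic genes together, were chosen for naming after their values were seen and had differences of 0.21 (adjusted p = 0.140) and -0.06 (adjusted p = 0.688). The median over the 22 was 0.09. Of 24 genes of excitatory interneurons only *Sim1*, a factor of ventral V3 interneurons, passed. It rose by 0.25 (standard error 0.0635, adjusted p = 0.0243 from limma), on 0 arrays above the mark. *Sim1* passed after cyclic loess (adjusted p = 0.0352) and did not after quantile normalization (adjusted p = 0.0783). Without *Nfix*+/+ replicate 2, 8 of the 111 genes passed.

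**Figure D4:**
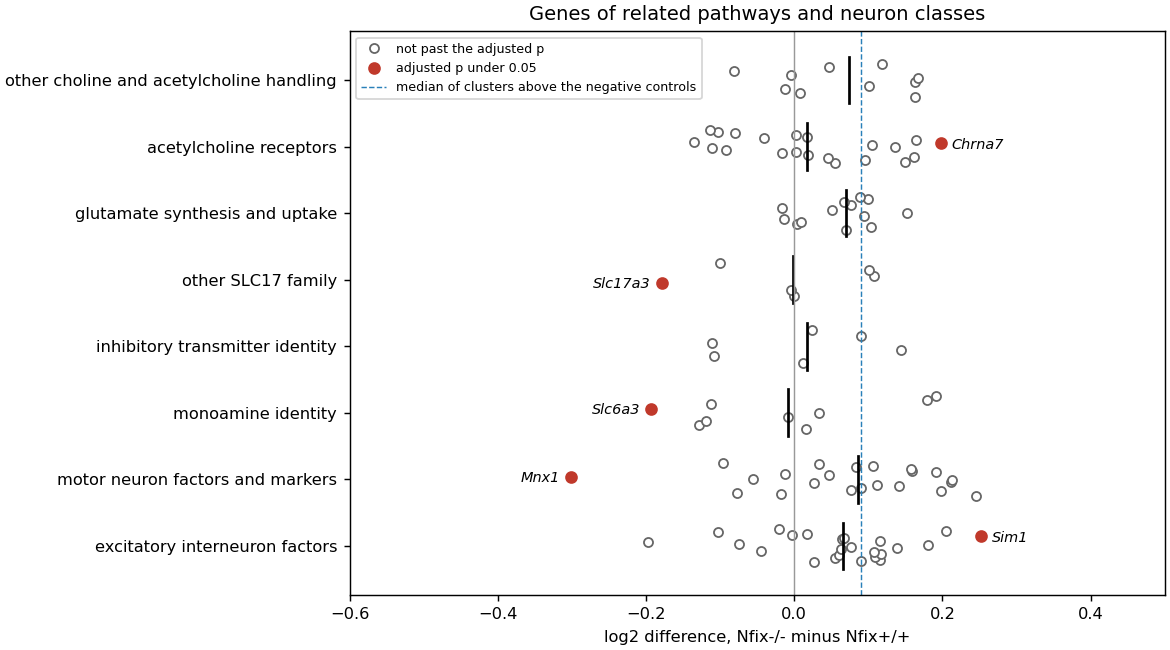
Each point is the log2 difference, *Nfix*-/- minus *Nfix*+/+, of 1 gene in a list of a related pathway or neuron class. Filled points passed an adjusted p of 0.05, black bars are list medians, and the dashed line is the median of clusters above the negative controls, 0.09. The 5 genes that passed are *Chrna7* and *Sim1* above 0 and *Slc17a3*, *Slc6a3* and *Mnx1* below it.

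Cells outside the cord that use some of these genes were measured too. Muscle and red blood cells carry acetylcholinesterase. The mean over 15 genes of skeletal muscle was 5.93 to 6.43 on the *Nfix*-/- arrays and 5.70 to 6.18 on the *Nfix*+/+ arrays. *Myl1* was higher by 0.72, *Tnnc2* by 0.42 and *Tnnt1* by 0.25 (adjusted p = 0.0466, 0.0496 and 0.0446 from limma). *Myf5* was lower by 0.44 (adjusted p = 0.00399 from limma), and 11 did not pass. Each of these named genes was above the negative-control mark on 0 arrays, and the list median was 0.25. Without *Nfix*+/+ replicate 2, 0 muscle genes passed as higher and 1 as lower. *Nfix*+/+ replicate 3 and *Nfix*-/- replicate 1 had the highest muscle means of their genotypes. The unmapped row of *Ache* was lowest of its genotype on the first of these arrays and highest on the second. The mean over 7 genes of red blood cells was 7.01 to 7.11 in *Nfix*-/- and 6.87 to 7.21 in *Nfix*+/+. None of them passed with all arrays, and 1 passed as lower without *Nfix*+/+ replicate 2. Over 13 genes of meninges and fibroblasts the means were 8.03 to 8.14 in *Nfix*-/- and 7.85 to 7.97 in *Nfix*+/+. In this list 5 genes were higher (4 without *Nfix*+/+ replicate 2), among them *Foxc1* at 0.34 (adjusted p = 0.00424 from limma). The part of these cells in the 7 genes was not tested. The mean over 12 lumbosacral *Hox* genes ran from 5.24 to 6.59 in *Nfix*-/- and from 5.66 to 6.22 in *Nfix*+/+. In *Nfix*-/- it was lowest on replicate 4, where *Slc17a6* was highest and *Slc18a3* lowest of the genotype. In *Nfix*+/+ it was lowest on replicate 1, where *Slc17a6* and *Slc18a3* were both highest of the genotype. In this list only *Hoxc10* was above the negative-control mark on at least 4 arrays, and it varied far more than the mean. It was 4.73 on *Nfix*-/- replicate 4, against 8.37 to 8.97 on the other *Nfix*-/- arrays. On *Nfix*+/+ replicate 1 it was 6.64, against 7.93 to 8.53 on the other *Nfix*+/+ arrays. Whether the length of cord taken differed between arrays was not tested.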

How the data were processed

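The authors summarised the probes with the SST-RMA method of Expression Console software and the mm10 build, and deposited 1 log2 value per transcript cluster and array. The deposited arrays still differed in median, from 5.08 to 5.21, so scaling was varied. The main values were used unchanged. Of 72688 rows, 6732 control rows were left out. Rows were named from the platform annotation with symbols matched through Entrez identifiers to RefSeq of GRCm38.p6: 30638 rows carried 1 symbol, 2176 several and 33142 none. Genotypes were compared unpaired over 65956 clusters with limma 3.58.1 in R 4.3.3 and Benjamini-Hochberg adjustment, called at an adjusted p under 0.05. The study's fold cut-off of 1.5 and its one-way test were alternatives. The 7 genes and 16 further lists (205 of 230 genes measured by a row of their own) were chosen with earlier results of these data known. Genes named were the 7, genes of the lists taken mainly from up to 3 called with the lowest p (2 of lowest p where none was called), and the 2 most alike genes of members above background. Not every gene that this rule picks is named. Arrays, 4 for each genotype, have no depth, and their number limits the precision. The script was tested on simulated data. Proteins were not analysed here.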

Additional observations from a re-analysis of the deposited data

Results flagged for a closer look

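In 8 of 104 groups of 4 arrays 1 array lay far from the other 3, by a rule that chance meets in about 1 in 20 groups. The groups come from the same 8 arrays and are not independent, so the 2 shares cannot be compared strictly. No cholinergic or vesicular glutamate transporter gene was among them. Means over lists accounted for 5. The mean of motor neuron genes was 7.43 on *Nfix*-/- replicate 4, against 7.52 to 7.53 on the others, and 7.34 on *Nfix*+/+ replicate 2, against 7.45 to 7.47. *Nfix*+/+ replicate 2 was also low for other choline and acetylcholine handling, at 6.45 against 6.52 to 6.53, and for monoamine genes, at 5.39 against 5.62 to 5.63. The mean of cervical and thoracic *Hox* genes was 9.28 on *Nfix*-/- replicate 4, against 9.17 on the others. Of single genes, *Slc17a3* was 3.50 on *Nfix*-/- replicate 2, against 3.57 to 3.58. *Hes5* was 8.06 on *Nfix*+/+ replicate 2, against 8.14 to 8.15, and *Hoxc4* was 8.35 on *Nfix*+/+ replicate 3, against 8.51 to 8.52.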

How the results depend on the processing

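*Chat*, *Ache*, *Slc17a6*, *Slc17a7* and *Slc17a8* kept the sign of their difference under every alternative run. *Slc18a3* turned to 0.0122 with median scaling and ran from -0.18 to 0.12 with each array left out, and *Slc5a7* turned to -0.0262 after cyclic loess and -0.0119 after quantile normalization. The cause was not tested. Of the 7 genes 1, *Ache*, passed with array weights (adjusted p = 0.0470) and with median scaling (adjusted p = 0.0441). With each array left out 0 to 1 passed, *Ache* without *Nfix*+/+ replicate 2, and over all its alternatives its adjusted p ran from 0.0441 to 0.481. The lowest adjusted p of *Chat* was 0.0603, with the methods' one-way test, and that of *Slc17a6* 0.0638, with median scaling. The mean of the rows of *Ache* gave 0.13 (adjusted p = 0.122). Of 65956 clusters 14520 passed. Fewer were counted where fewer could be: 2500 among clusters above the negative controls, 8357 among those with 1 symbol, and 1351 with a fold over 1.5. With each array left out 9858 to 15080 passed. The 5 calls in related lists, 2 higher and 3 lower, changed in number and in direction. They became 3 (3 higher, 0 lower) with median scaling, 7 (2 higher, 5 lower) after cyclic loess, 1 (0 higher, 1 lower) after quantile normalization and 5 (5 higher, 0 lower) among clusters above the negative controls. They were 11 (7 higher, 4 lower) with array weights, 12 (8 higher, 4 lower) among clusters with 1 symbol, 10 (7 higher, 3 lower) each with the methods' one-way test and a trended robust prior, 0 with a fold over 1.5, and 2 to 8 with each array left out. Litters are not given, so whether the replicate numbers pair the arrays is not known. Deviations of same-numbered arrays from their genotype means correlated at 0.47, -0.15, 0.04 and -0.08 over clusters. With the replicate block 11235 clusters, 0 of the 7 genes and 2 of the related genes passed. Depth is not defined for arrays, and 5 of the 7 genes were too near the negative controls for a firm statement on a change in RNA. *Ache* was clear of the negative-control mark on every array only in its unmapped row.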
